A study of Mus musculus with 2 samples.

Results

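The Fev-positive, Chgb-low endocrine cells of the Isl1CKO islets are described here. They were chosen by their own counts. A cell of that library was taken when it held at least 3 unique molecular identifiers (UMIs, each standing for 1 captured transcript) of Fev, with Ttr below 5%, Ins1 and Ins2 together below 20% and Chgb below 4% of its UMIs. Of 2987 Isl1CKO cells, 476 met these limits (15.9%, exact 95% binomial interval 14.6% to 17.3%), out of 5483 cells in both libraries. The values of Fev, Ttr, Ins1, Ins2 and Chgb are therefore a choice and not a result, and every other level below is a description of the chosen cells.

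The study profiled islet cells of mice at postnatal day 9 by droplet single-cell RNA sequencing (10x Chromium 3' chemistry) after sorting for tdTomato fluorescence. The Isl1CKO animals were Neurod1 Cre/+; Isl1f/f, and the control animals were Neurod1 Cre/+; Isl1f/+. Both groups thus carried a Cre driven from Neurod1, which is active in endocrine-committed cells, and the control carried 1 floxed Isl1 allele that Cre can also remove. Each genotype was 1 library pooled from 6 animals, so no difference between genotypes has a replicate check, no test was run, and all intervals cover counting error only. Cells of both libraries were dissociated with actinomycin D, which blocks transcription. Which exon is floxed is not stated by the labels, so UMIs counted at the 3' end of Isl1 do not check the deletion, and "Isl1CKO" stands for the library so labelled.

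In the developing pancreas, the basic helix-loop-helix factor Neurog3 starts the endocrine programme, and its short-lived expression is followed by Fev, an ETS-family factor of a transient progenitor state that precedes hormone expression in the mouse. Isl1 is a LIM-homeodomain factor of maturing islet cells and of many neurons. Chgb encodes chromogranin B, a protein of the secretory granule.

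The promoters of the 3 marker genes whose levels are followed most closely below are shown because these factors belong to families with well-known binding letters. Both strands of the 250 bases before each RefSeq start (GRCm38.p6) were searched for CAGATG (an E-box letter string of basic helix-loop-helix factors), TAATTA (a homeodomain core) and CCGGAA (an ETS core), which do not overlap each other here. Matches are in capitals.
Fev, chr1:74885409-74885658, minus strand: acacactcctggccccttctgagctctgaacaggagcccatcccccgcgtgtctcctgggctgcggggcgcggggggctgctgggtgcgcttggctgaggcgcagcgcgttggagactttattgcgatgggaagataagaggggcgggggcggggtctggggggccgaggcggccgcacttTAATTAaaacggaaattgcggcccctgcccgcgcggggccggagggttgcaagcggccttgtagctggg
Neurog3, chr10:62132840-62133089, plus strand: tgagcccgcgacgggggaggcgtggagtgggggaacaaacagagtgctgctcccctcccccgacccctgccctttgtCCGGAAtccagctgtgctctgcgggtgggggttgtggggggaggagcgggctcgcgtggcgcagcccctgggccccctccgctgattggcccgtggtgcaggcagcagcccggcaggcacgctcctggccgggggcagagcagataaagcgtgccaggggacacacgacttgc
Tac1, chr6:7554811-7555060, plus strand: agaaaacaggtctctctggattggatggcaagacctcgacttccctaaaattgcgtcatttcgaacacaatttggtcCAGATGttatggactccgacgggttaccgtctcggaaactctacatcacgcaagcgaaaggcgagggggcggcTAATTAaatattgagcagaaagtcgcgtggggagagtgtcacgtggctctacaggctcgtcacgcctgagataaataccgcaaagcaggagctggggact
The Fev window held TAATTA with its first base at position -69 from the start. The Neurog3 window held CCGGAA at position -173. The Tac1 window held CAGATG at position -173 and TAATTA at position -100. Among 32851 mouse promoter windows of the same length, 14.4% held CAGATG, 4.84% held TAATTA and 12.0% held CCGGAA. Of 2 start windows of Cbfa2t3, 1 held CAGATG at position -177 and CCGGAA at position -214 and the other none. The windows of Gast and Sox4 held none of the 3 strings, and a match is a description of letters only.

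Within the Isl1CKO library the limits were met step by step. At least 3 Fev UMIs were counted in 2032 cells (68.0%), of which 1001 were also below the Ttr limit and 862 below the insulin limit, and the Chgb limit left the 476. The cells that dropped out form the comparison groups: 386 Fev-positive cells with Chgb at 4% or more (Chgb-high), 1439 Ttr-high cells and 383 insulin-high cells, both whatever their Fev count, and 303 other cells with fewer Fev UMIs. The chosen cells were shallower than most of these, with a median of 14455.5 UMIs (4906 to 66656) and 4354 genes, against 18524.5 UMIs in Chgb-high, 29001 in Ttr-high, 38693 in insulin-high and 13740 in other cells. In the control library, 171 of 2496 cells met the same limits (6.85%, interval 5.89% to 7.91%), with a median of 18158 UMIs. The share is a share of sorted cells that passed barcode filters, and the libraries reached these filters differently, since the Isl1CKO matrix listed 3020 barcodes and the control matrix 6794880. With each cell thinned to 4000 UMIs and the Fev limit lowered to 1 UMI, the shares were 15.4% of Isl1CKO and 11.7% of control cells, and with a Fev limit of 2 UMIs and no thinning they were 18.8% and 14.9%. The gap was thus smaller under both settings, and the part of depth alone was not tested. No barcode of the 476 cells occurred among the control cells.

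The 4% limit on Chgb cuts a continuous distribution. Among the 862 Fev-positive Isl1CKO cells below the other limits, the median Chgb share was 3.5% of UMIs, with quartiles at 1.33% and 6.28%. There were 46 cells between 3.5% and 4.0% and 41 cells between 4.0% and 4.5%, with no gap at the limit. Cells just inside and just outside were alike in most markers: the 80 cells with Chgb from 3% to under 4% had 95.7 CPM (counts per 1e6 UMIs) of Neurog3, 77.0 CPM of Tac1 and 306 CPM of Sox4, against 83.3, 154 and 340 CPM in the 84 cells from 4% to under 5%. CPM here is taken over the UMIs summed in a group of cells, and is compared within a gene only. At the Fev limit, the 91 cells with exactly 3 UMIs had 57.3 CPM of Neurog3 and the 85 cells with 2 UMIs, which were left out, had 60.3 CPM. At the Ttr limit, both the 26 cells just inside (4% to under 5%) and the 54 just outside had little Neurog3, with 7.84 and 4.90 CPM, and high Slc38a5 (an amino acid transporter of alpha cells), with 9451 and 10809 CPM. At the insulin limit, the 16 cells just inside (15% to under 20%) had 44.6 CPM of Neurog3 and the 10 just outside (20% to under 25%) had 16.7 CPM.

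A set of 6 genes had been put forward as marks of these cells: Fev, Neurog3, Tac1 (the tachykinin precursor), Gast (gastrin), Sox4 (an SRY-box factor of endocrine progenitors) and Cbfa2t3 (a transcriptional co-repressor). Neurog3 stood at 84.6 CPM (95% Poisson interval 78.3 to 91.2), with 70.4 CPM in Chgb-high, 2.95 in Ttr-high, 10.3 in insulin-high and 44.1 in other Isl1CKO cells, and 46.8 CPM in control cells that met the limits. Sox4 stood at 279 CPM in the chosen cells, 317 in Chgb-high, 79.9 in Ttr-high, 102 in insulin-high and 263 in other cells, and at 113 CPM in the control cells. Both genes were therefore high in the Chgb-low and Chgb-high cells alike and low in Ttr-high and insulin-high cells. Tac1 stood at 89.3 CPM, below its 121 CPM in Chgb-high cells and above its 9.02 CPM in Ttr-high, 1.43 in insulin-high, 61.9 in other and 8.66 in control cells. Cbfa2t3 stood at 42.3 CPM (37.9 to 47.1), against 28.9 CPM in Chgb-high, 8.30 in Ttr-high and 44.2 CPM (37.4 to 51.7) in control cells that met the limits. The intervals of the Isl1CKO and control cells overlap for Cbfa2t3 and do not for Neurog3, Sox4 and Tac1. Fev itself, used to choose the cells, stood at 454 CPM in the Isl1CKO cells and 222 CPM in the control cells.

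**Figure D1:**
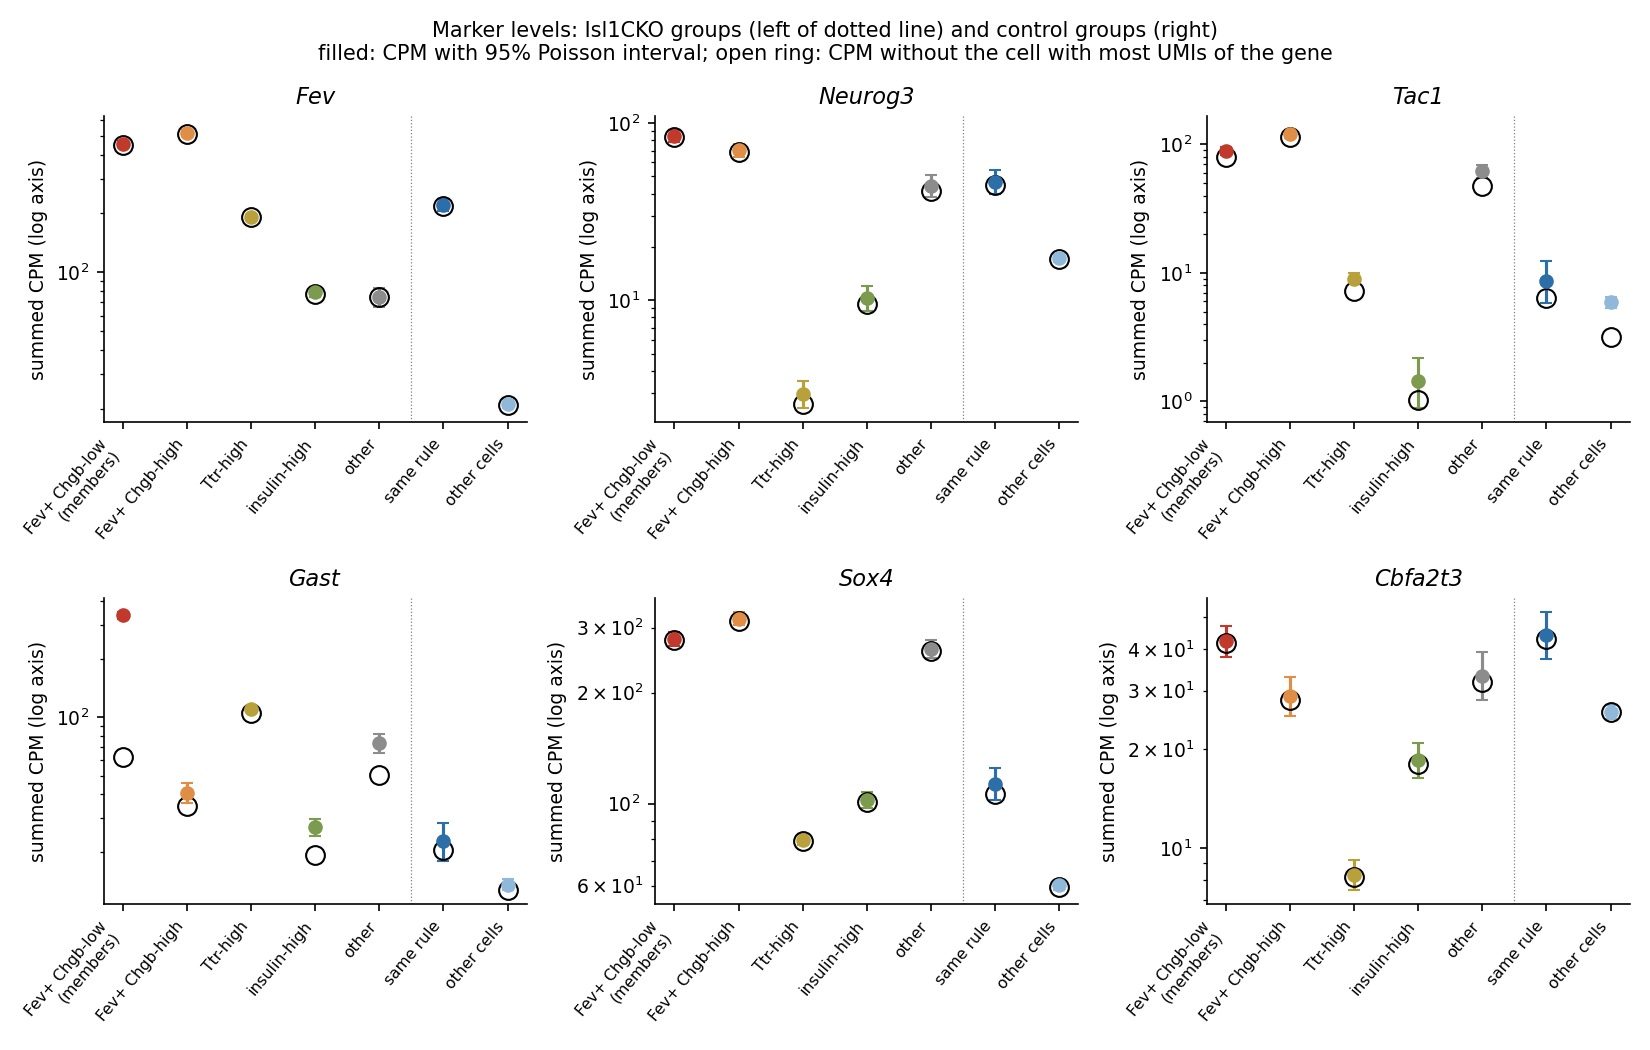
Summed CPM (log axis) of the 6 marker genes in the chosen Isl1CKO cells (members), the other Isl1CKO groups and 2 control groups, with 95% Poisson bars and, as open rings, the value without the cell that holds the most UMIs. Neurog3 and Sox4 are high in the Chgb-low and Chgb-high cells alike, and the Gast value of the members moves to 62.1 CPM when 1 cell is left out.

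Gastrin does not mark the cells as a group. Its 337 CPM came to 81.6% from a single cell, in which 2166 of 16242 UMIs were Gast, with 3 Fev UMIs and no Neurog3 UMI. Without that cell Gast stood at 62.1 CPM in the chosen cells, against 105 CPM in Ttr-high, 34.8 in Chgb-high and 20.6 CPM in control cells, each without its highest cell. Gast UMIs occurred in 22.3% of the chosen cells and in 61.6% of Ttr-high cells, and at 4000 UMIs per cell in 7.77% and 21.9%. The highest group for Gast is therefore the Ttr-high cells, with and without thinning.

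Detection per cell shows that the progenitor genes were present in part of the cells. Per cell, Neurog3 had a median of 0, an upper quartile of 150 CPM and a maximum of 946 CPM, and Tac1 a median of 0 and a maximum of 6123 CPM. Sox4 had a median of 235 CPM (quartiles 119 and 411) and Isl1 of 631 CPM (362 and 923), against 65.2 and 422 CPM in control cells that met the limits. Neurog3 UMIs occurred in 230 of the 476 cells (48.3%, interval 43.8% to 52.9%), and in 25.8% after thinning, against 33.9% and 13.5% of control cells that met the limits. Tac1 UMIs occurred in 28.6% (16% thinned) of Isl1CKO and 6.43% (2.92%) of control cells. Sox4 UMIs occurred in 92.4% (63.9% thinned) and 66.7% (31.0%), and Cbfa2t3 UMIs in 39.9% (14.5%) and 49.1% (14.0%). As a measure of free RNA, the 23 Isl1CKO cells with at least 20 UMIs of mesenchymal markers, which should lack endocrine genes and had a median of 7956 UMIs, held no UMI of Fev, Neurog3, Tac1, Gast or Isl1, which allows a share of up to 13% of such cells (3 of the 23; exact upper limit 14.8%). Sox4 occurred in 52.2% and Cbfa2t3 in 21.7% of those mesenchymal cells, so neither is restricted to endocrine cells.

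Isl1 UMIs were counted in 95% of the chosen cells, at 672 CPM (654 to 690.5), against 499 CPM in Chgb-high and 491 in Ttr-high Isl1CKO cells and 471 CPM (448 to 494) in control cells that met the limits. As given above, these 3' counts do not show whether the transcripts carry the floxed exon. Relative to the median gene, the log2 ratio of Isl1 over the control cells was 0.06, with an interval of -0.02 to 0.15.

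The label of a progenitor-like state was checked against these markers and against markers of other cell types. Neurog3, Tac1 and Cbfa2t3 were higher in the summed counts than in the other Isl1CKO cells. Sox4 was higher too but by less than 2-fold relative to the median gene, and in Chgb-high cells all 4 genes were within 2-fold of these levels. Neurog3, Tac1 and Sox4 were thus high on both sides of the Chgb limit and, as given above, low in Ttr-high cells and between these levels in the other cells with fewer Fev UMIs. The markers do not single out the chosen cells, which are called here by their rule. Defining markers of non-endocrine cells were at or near 0: 3 of 4 immune markers (Ptprc, Tyrobp, Cd52), the endothelial marker Cdh5 and the neural or Schwann marker Sox10 had no UMI. The 5 mesenchymal markers summed to 3.94 CPM in the chosen cells, with 0 to 374 CPM per cell, against 64.1 CPM in control cells that met the limits. The 5 acinar markers summed to 271 CPM, against 913 CPM in the other Isl1CKO cells and 130 CPM in the control cells, and the 6 ductal markers to 475 CPM, against 513 and 303 CPM. The part of these in the results was not tested.

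A few sums rest on 1 cell each and are given so that no gene is read from them. Haemoglobin UMIs came almost wholly from 1 cell, with 19305 of 19345 UMIs, which also held 21 Fev and 769 Chga UMIs. The contractile genes Acta2, Tagln and Myl9 came to 742 of 758 UMIs from another cell with 15 Fev and 483 Chga UMIs. Scrublet, a doublet caller, marked 5 of 2987 Isl1CKO cells (0.167%) and 1 of the 476. In the control library it marked 63 of 2496 cells (2.52%), 7 of them among the cells that met the limits. The marked cells were kept, so cells of mixed origin were not removed. Without the marked cells, 155 genes in place of 174 were lower than in control cells that met the limits.

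Against all other Isl1CKO cells, the chosen cells had more transcripts of Neurog3, Hhex, Egr1 and Fos and fewer of Dcn, Col1a1, Agt and Sct. Ratios are given as log2 CPM ratios relative to the median gene, because the hormones take up a large part of the UMIs of other cells; the median gene itself was 0.42 higher on the log2 scale in the chosen cells. A gene was counted when this ratio reached 2-fold and at least 50 UMIs were summed in the group with the higher CPM. Of 11177 genes, 164 were higher (1.47%) and 752 lower (6.73%). Without the centring the counts were 658 and 440, and with CPM over genes outside the hormones and other abundant genes 275 and 588. Since the cells were chosen from the same counts, nothing is read from these totals.

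Several transcription factors of islet lineages were among the 12 highest genes. Neurog3 stood at 84.6 CPM, against 14.3 CPM in all other Isl1CKO cells, a log2 ratio of 2.14 (2.00 to 2.28). Hhex, the homeobox factor of delta cells, stood at 49.8 CPM against 7.59 CPM, a log2 ratio of 2.30 (2.10 to 2.49), with UMIs in 186 cells. Nkx6-3, a homeobox factor known from gastrin cells of the mouse stomach, stood at 8.01 CPM against 0.829 CPM, with UMIs in 29 cells. Zfp521, a zinc-finger factor, stood at 8.52 CPM against 1.16 CPM. The extracellular protein gene Fbln5 stood at 12.8 CPM against 1.83 CPM. Hhex and Nkx6-3, like Neurog3, were thus counted in a minority of the cells.

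Among immediate early genes, which respond quickly to stimulation or handling, Egr1 and Fos were high. Egr1 stood at 108 CPM, against 17.2 CPM in the other cells (log2 ratio 2.23, 2.10 to 2.36), with UMIs in 272 cells. Fos stood at 47.1 CPM against 5.73 CPM (2.62, 2.41 to 2.82). In the fixed list of immediate early genes 4 of 9 compared genes were higher (Fos, Egr1, Ier2, Junb) and 0 lower, with a median log2 ratio of 0.61. Over all genes 1.47% were higher and 6.73% lower. The 23 mesenchymal-marker cells held 54.2 CPM of Egr1 and 19.7 CPM of Fos. The part of dissociation in these levels was not tested. Acta2, Tagln, Myl9 and the heat-shock gene Hspa1a, also among the 12 highest, held 99.8%, 97.3%, 93.7% and 54.1% of their UMIs in 1 cell.

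Among the 12 lowest genes were 5 of connective tissue. Dcn (decorin) stood at 0.127 CPM, against 14.7 CPM in the other Isl1CKO cells, a log2 ratio of -7.27 on 1 UMI (-12.58 to -4.79). Col1a1 (type I collagen) stood at 0.254 against 12.9 CPM (-6.08, -9.13 to -4.22). Lum, Fibin and Mfap4 had no UMI in the chosen cells, and against a floor of 3 UMIs over the group they were at least 18.3-fold, 17.3-fold and 10.1-fold lower relative to the median gene. Cd74 and H2-Aa, genes of class II antigen presentation, stood at 0.254 against 15.8 CPM (-6.37, -9.42 to -4.52) and at 0.381 against 6.25 CPM (-4.45, -6.74 to -2.90). The 23 mesenchymal-marker cells, none of them among the chosen cells, held 992 of the 1029 Dcn UMIs and 896 of the 901 Col1a1 UMIs of the other Isl1CKO cells, and 61.5% of the Cd74 and 65.2% of the H2-Aa UMIs came from 1 cell. Another 4 are secreted or surface products: Sct (secretin) stood at 65.0 against 376 CPM (log2 ratio -2.95), Agt (angiotensinogen) at 112 against 744 CPM (-3.16), Msln (mesothelin) at 16 against 155 CPM (-3.69) and Hapln1 (a hyaluronan link protein) at 8.77 against 56.7 CPM (-3.11). The elongation factor gene Eef1a2 stood at 16.2 against 98.0 CPM.

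**Figure D2:**
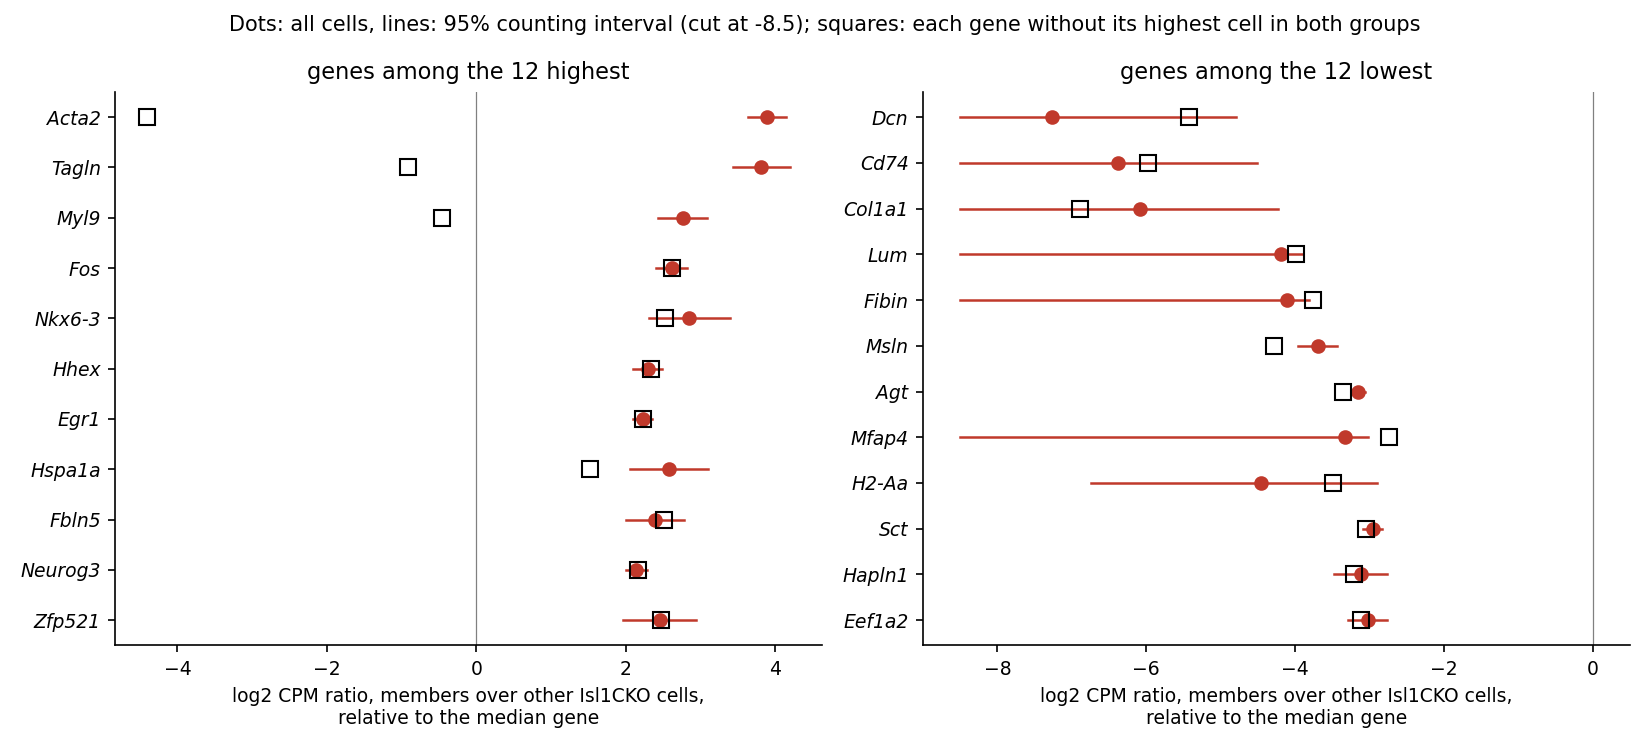
Log2 CPM ratio relative to the median gene of genes among the 12 highest and 12 lowest, chosen Isl1CKO cells (members) over all other Isl1CKO cells: dots with 95% counting intervals, and squares for the ratio when each gene's highest cell is left out of both groups. Acta2, Tagln and Myl9 move below 0 without 1 cell, while Hhex, Egr1, Fos and Neurog3 hardly move.

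Gene lists gave the following picture against the other Isl1CKO cells, where the median over all 11177 genes is 0 by construction. Over all of these genes 1.47% were higher and 6.73% lower, and nothing is read from a count of 0 in a short list. Among endocrine progenitor regulators, 3 of 17 compared genes were higher, Neurog3 and Cbfa2t3 among them, and 0 lower, with a median log2 ratio of 0.59. Insm1, Rfx6, Nkx2-2, Pax6 and Neurod1, the general endocrine regulators, lay between 0.25 and 0.59; Neurod1 shares exon sequence with Cerkl, so its count is uncertain. Of 9 Notch pathway genes 0 passed 2-fold in either direction (median 0.25). Of 14 genes tied to Neurog3 commitment, 0 were higher and 2 lower, Mdk among them (median 0.15).

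The hormone and identity lists had medians below 0, relative to the median gene. Of 19 gut hormones and neuropeptides, 4 were higher (Gast, Tac1, Ppy, Pyy) and 9 lower, with a median of -0.95; the Gast count rests on the cell named above. Pyy (peptide YY) stood at 9141 CPM against 2697 CPM, and Ppy (pancreatic polypeptide) at 888 against 247 CPM. Of 13 alpha-cell genes 6 were lower (Slc38a5, Gcg, Gc, Irx1, Irx2, Etv1), median -0.93. Of 16 beta-cell genes 1 was higher (Nnat) and 7 lower, with the urocortin Ucn3 and the glucose transporter Slc2a2 among them, median -0.74. The rule left out Ttr-high and insulin-high cells, which are 1439 and 383 of the 2511 other Isl1CKO cells. The choice itself thus favours lower alpha-cell and beta-cell genes, and nothing is read from these 2 lists. Of 11 delta, gamma and epsilon genes 4 were higher (Hhex, Ppy, Pyy, Arg1) and 2 lower, median -0.05, which the shift of 0.42 would place above 0 without the centring.

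In each remaining list at most 1 gene was higher and at most 4 were lower, beside 1.47% and 6.73% of all genes. For the serotonin, granule, cell-cycle and neuronal lists the median lies above 0 without the centring. Of 11 serotonin and enterochromaffin genes 0 were higher and 1 lower (Tph1, which makes serotonin; median -0.27). Of 16 granule and prohormone genes 0 were higher and 2 lower (Vgf, Scg2; median -0.33). Of 10 genes of the LIM complex 1 was higher, Lhx1, a LIM-homeodomain factor related to Isl1, with 47.2 against 15.9 CPM, and 1 lower (Lmo2; median 0.29). Of 17 cell-cycle genes 0 passed in either direction (median -0.34). Of 14 neuronal cytoskeleton genes 0 were higher and 4 lower (median -0.19).

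The Fev-positive, Chgb-high cells met the same rule except for the Chgb limit, and the comparison shows what changes along the Chgb axis. In the sums, Ghrl, Gcg and Sst (hormones), Slc38a5 and Irx1 (alpha-cell genes) and Cdk1 (cell cycle) were higher in the Chgb-low cells. Vim, Ddc and Slc18a1 were lower. The higher sums came mostly from part of the cells, as given below. Of 10150 genes, 288 were higher (2.84%) and 122 lower (1.2%), with a median shift of 0.10 on the log2 scale. Chgb set the groups, so nothing is read from these totals.

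Ghrl (ghrelin, the hormone of epsilon cells) stood at 610 CPM in the Chgb-low cells, against 6.82 CPM in Chgb-high cells, a log2 ratio of 6.38 (5.99 to 6.81), with UMIs in 16.2% of Chgb-low and 2.59% of Chgb-high cells after thinning. Gcg (glucagon) stood at 324 against 19.9 CPM (3.93, 3.69 to 4.17), with UMIs in 104 cells. Sst (somatostatin) stood at 150 against 1.74 CPM, with 53.6% of its UMIs in 1 cell, without which it stood at 69.7 CPM in the Chgb-low cells. So these 3 islet hormones were higher in the sums, each carried by a minority of the cells. Ppy was also at least 2-fold higher.

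Some cell-cycle genes were also higher. Nusap1 stood at 24.8 against 0.401 CPM (log2 ratio 5.85, 4.28 to 8.14, on 3 UMIs in Chgb-high cells), Ube2c at 65.0 against 2.14 CPM, Cdk1 at 30.4 against 1.2 CPM and the histone gene Hist1h1b at 110 against 6.15 CPM. Of 15 cell-cycle genes compared, 7 were higher and 0 lower, with a median log2 ratio of 0.89, beside 2.84% and 1.2% of all genes. These UMIs came from few cells: 15 of the 476 (3.15%, 1.77% to 5.14%) held at least 3 UMIs over 6 proliferation genes, against 7 of 386 Chgb-high cells (1.81%, 0.732% to 3.70%), and these intervals overlap. Without such cells 178 genes in place of 288 were higher. The contractile genes Acta2, Myl9, Tagln, Tpm2 and Rgs5 filled the rest of the 12 highest, and 58.2% or more of the UMIs of each came from 1 cell.

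The 12 lowest genes against Chgb-high cells were led by Wfikkn2 (a secreted protease-inhibitor-domain protein) at 6.74 against 37.8 CPM (log2 ratio -2.59, -3.04 to -2.16) and Vstm2a at 8.27 against 40.5 CPM (-2.39). Vim, the intermediate filament vimentin, stood at 55.2 against 224 CPM (-2.12, -2.28 to -1.97). Ptger3, a prostaglandin E receptor, stood at 15 against 63.0 CPM, the retinaldehyde dehydrogenase gene Aldh1a3 at 3.31 against 14.8 CPM and the secreted Dkk3 at 9.54 against 40.1 CPM. Prlr, the prolactin receptor, stood at 25.3 against 82.9 CPM, but shares exon sequence with Gm21973, so its count is uncertain. Steap4, S100z, Cthrc1, Gpr45 and Tmem252 completed the 12, with log2 ratios from -2.74 to -1.85.

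Among the lists against Chgb-high cells, 8 of 13 alpha genes were higher, among them Sstr2, Gcg, Irx1, Slc38a5, Irx2, Gc and Peg10, and 1 lower (Gria3), with a median log2 ratio of 1.85. Slc38a5 stood at 1634 against 198 CPM, and Irx1, an Iroquois homeobox factor of alpha cells, at 71.1 against 6.15 CPM. Both sums came mostly from 88 of the Chgb-low cells, which are cluster 3 in the clustering given below. These held 10744 Slc38a5 and 478 Irx1 UMIs, against 2106 and 81 in the rest of the chosen cells. Of 14 gut hormones and neuropeptides 9 were higher and 0 lower (median 1.34), and of 11 delta, gamma and epsilon genes 6 and 0 (median 1.46), with Hhex at 49.8 against 15.2 CPM. These lists share Ghrl, Sst, Ppy and Pyy, so their counts overlap. Over all genes 2.84% were higher and 1.2% lower. Of 10 serotonin and enterochromaffin genes 1 was higher (Rgs4) and 3 lower: Slc18a1, a vesicular monoamine transporter, with 17.2 against 48.1 CPM, Ddc, the aromatic amino acid decarboxylase, with 99.9 against 235 CPM, and Tph1 (median -0.15).

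Progenitor genes did not separate the groups to the same degree. With 2.84% of all genes higher and 1.2% lower, nothing is read from a count of 0 in lists this short. Of 17 progenitor regulators 0 were lower (median 0.05), and Neurog3 had a log2 ratio of 0.17 (0.00 to 0.33). Of 9 Notch genes 0 were higher and 1 was lower, the Notch-related ligand Dlk1, with 50.7 against 143 CPM (median -0.01). Of 13 commitment genes 1 was higher (Mdk) and 0 lower (median -0.07), of 14 beta genes 2 (Abcc8, G6pc2) and 2 (Slc2a2, Sytl4; median 0.21), and of 16 granule genes 0 and 0 (median 0.04). Of 9 LIM complex genes 0 and 0 passed (median -0.06), of 10 neuronal genes 2 (Stmn1, Nefm) and 0 (median 0.11), and of 9 immediate early genes 3 (Fos, Jun, Egr1) and 0 (median 0.67).

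Along the Chgb share, the genes took different courses. Neurog3 stood at 56.5 CPM in the 176 cells below 1% Chgb, at 104, 100 and 95.7 CPM in the next 3 percentage-point bins, and at 82.3, 78.1 and 52.1 CPM in cells of 4% to 6%, 6% to 8% and 8% or more. It was thus lower at both ends. Slc38a5 stood at 2748, 1580, 693, 632, 334, 120 and 136 CPM over the same bins, and Ghrl at 1265, 412, 244, 4.32, 7.44, 6.48 and 6.51 CPM. The Ghrl value of 244 CPM between 2% and 3% came mostly from 1 cell, as the open rings in the plot show. Ddc went the opposite way, with 37.1, 78.8, 149, 194, 214, 257 and 237 CPM. Hhex and Egr1 were lower at higher Chgb, from 53.3 and 138 CPM in the lowest bin to 11.5 and 33.7 CPM in the highest, while Sox4 varied between 245 and 346 CPM over all 7 bins.

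**Figure D3:**
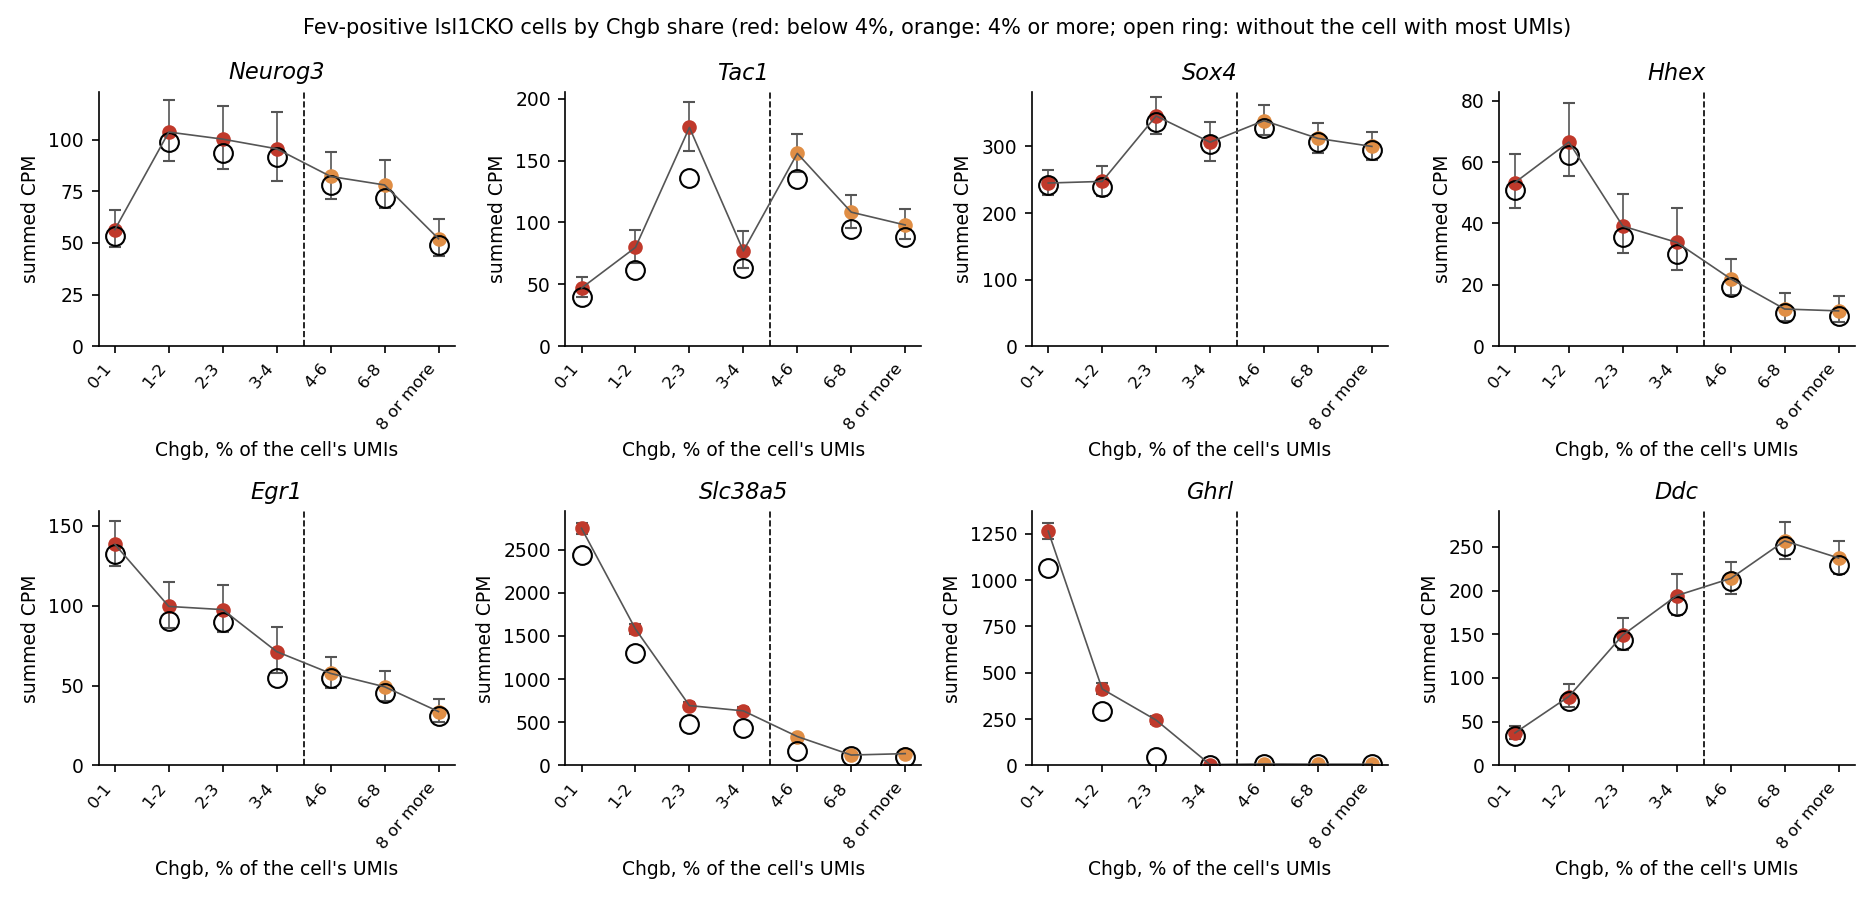
Summed CPM of 8 genes in Fev-positive Isl1CKO cells binned by the Chgb share of the cell's UMIs (%), with 95% Poisson bars and open rings for the value without the highest cell; red bins are the chosen cells and orange bins the Chgb-high cells. Slc38a5, Ghrl, Hhex and Egr1 are highest below 2% Chgb, and Ddc is highest at high Chgb.

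The chosen cells also varied among themselves. Graph clustering of the 476 cells (Leiden, resolution 0.5) gave 5 clusters, named here by number and leading genes only; 4 clusters were found at resolution 0.3 and 8 at 0.8. The clusters were made from the same genes, so their levels are descriptions. Cluster 1 held 157 cells (33.0%) led by Pyy, by Gast, which is mostly 1 cell (38.5 CPM without it), and by Ppy, with Pyy at 24603 CPM, against 146 to 3206 CPM in the other 4. Cluster 2 held 138 cells led by Sst (507 CPM, and 167 CPM without its highest cell), Tac1 and Hhex, with Tac1 at 230 CPM and Hhex at 104 CPM. Cluster 3 held 88 cells led by Acta2, which is 1 cell, and by Gcg, Sstr2, Slc38a5 and Irx1. Cluster 4 held 48 cells led by Dlk1, Ptger3 and Vim, and by Msln, which is mostly 1 cell. That cell held 45 of the 57 Msln UMIs, and without it Msln stood at 14.9 CPM. Cluster 5 held 45 cells led by Cenpf, Hmmr and Hist1h1b.

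The progenitor markers were spread unevenly over these clusters. Neurog3 stood at 121, 143 and 61.1 CPM in clusters 1, 2 and 4, and at 13.4 and 16.9 CPM in clusters 3 and 5. Cbfa2t3 stood at 51.1, 66.0, 15.1, 35.9 and 27.8 CPM in clusters 1 to 5. Sox4 stood at 274, 386, 177, 359 and 195 CPM in the same order. Clusters 3 and 5 were thus the lowest in Neurog3, Sox4 and Cbfa2t3, and also in Tac1, at 7.82 and 18.2 CPM. Gast went the other way. Without the highest cell of each cluster it stood at 96.7 and 46.6 CPM in clusters 3 and 5. In clusters 1, 2 and 4 it then stood at 38.5, 6.52 and 9.83 CPM. Fev, used to choose the cells, stood at 511, 545, 308, 412 and 430 CPM in clusters 1 to 5. Slc38a5 was highest in clusters 3 and 5, at 6000 and 1579 CPM, against 109 to 193 CPM in the others. Ghrl stood at 1255 and 1982 CPM in clusters 3 and 5, against 7.19 to 209 CPM. Of the 45 cells in cluster 5, 13 (28.9%) were cycling. Cartpt, a neuropeptide gene, stood at 767 and 762 CPM in clusters 3 and 4, and at 352 and 558 CPM without the highest cell of each.

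Clusters 3 and 5 also lay nearer the Ttr limit, with Ttr at 27891 and 15498 CPM, against 4151, 3650 and 5633 CPM in clusters 1, 2 and 4. Isl1 was counted in each cluster, at 719, 705, 677, 382 and 735 CPM. Cells with Xist and no Y-linked UMI, as a mark of pooled animals of different sex, made up 36.3% of cluster 1 and 2.17%, 10.2%, 0.00% and 17.8% of clusters 2 to 5. The clusters thus differ in the share of cells with this pattern. Cells without it are not shown to be male, and the pooled animals cannot be told apart.

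**Figure D4:**
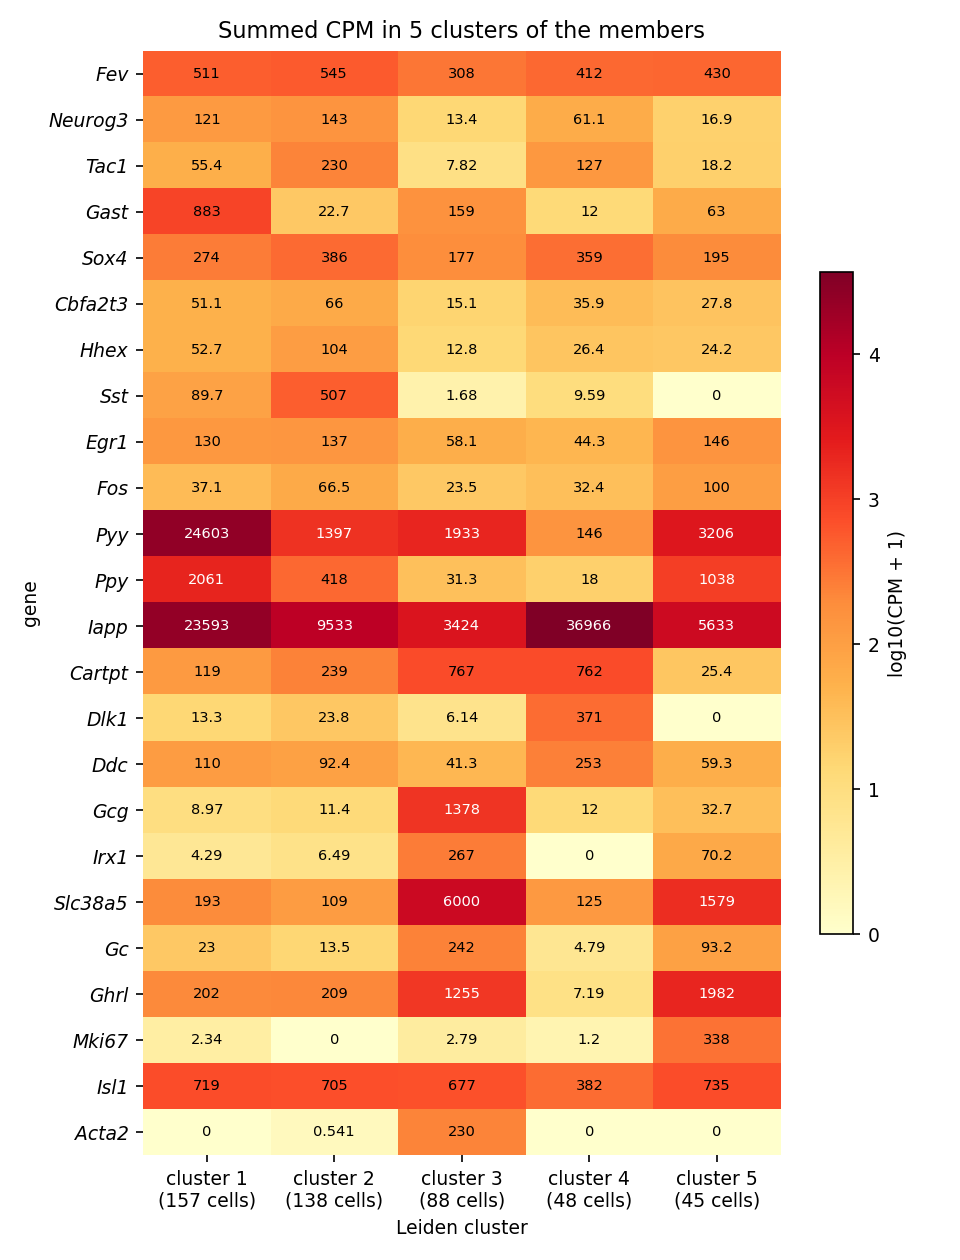
Summed CPM (numbers) of marker and leading genes in the 5 Leiden clusters of the 476 chosen cells, coloured by log10(CPM + 1). Neurog3 is 121 and 143 CPM in clusters 1 and 2 and 13.4 CPM in cluster 3, where Slc38a5 reaches 6000 CPM.

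Cells were also compared by whether Neurog3 was counted, after thinning to 4000 UMIs, as a description over cells of 1 library. Among the 123 cells with a Neurog3 UMI, 26.0% (18.5% to 34.7%) had Cbfa2t3 UMIs, against 10.5% (7.49% to 14.2%) of the 353 cells without. Hhex occurred in 29.3% against 14.7%. Ghrl went the opposite way, with 4.07% (1.33% to 9.23%) against 20.4% (16.3% to 25.0%). Tac1 was nearly even, with 19.5% (12.9% to 27.6%) against 14.7% (11.2% to 18.9%). The proliferation gene Mki67 occurred in 0 of the 123 Neurog3 cells, which allows a share of up to 2.44% (3 of the cells; exact upper limit 2.95%), against 3.68% (1.98% to 6.22%) of the others, and these intervals overlap. Ghrl was counted in 10 of the 13 cells with Mki67. Nkx6-1, a homeobox factor of beta cells and their progenitors, occurred in 77.6% (66.6% to 86.4%) of the 76 cells with Tac1 and in 52.8% (47.7% to 57.7%) of the 400 without.

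Against control cells that met the same limits, the Isl1CKO cells carried far less Gcg, Sst, Ppy and Pyy and more Cartpt, Tac1, Cidea and C2cd4b. Both sides were chosen by the same limits, which need not pick the same kind of cell in each library. Of cells with at least 3 Fev UMIs, the Ttr limit kept 1001 of 2032 in the Isl1CKO library. In the control library it kept 226 of 237. A difference between the sides is therefore not a difference by genotype between matched cells. Of 9649 genes, 363 were higher (3.76%) and 174 lower (1.8%) relative to the median gene, which was itself 0.45 higher on the log2 scale in the Isl1CKO cells. Without the centring the counts were 989 and 108. Median hormone content was 1.06% of UMIs in the Isl1CKO cells and 29.2% in the control cells, and the median mitochondrial share 2.15% and 1.31%.

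The hormones of alpha, delta and gamma cells were far lower. Gcg stood at 324 CPM in Isl1CKO cells, against 102867 CPM in control cells (log2 ratio -8.76, -8.82 to -8.7), and Sst at 150 against 21285 CPM (-7.60). Ppy stood at 888 against 72435 CPM (-6.80) and Pyy at 9141 against 95927 CPM (-3.84). Ghrl was within 2-fold, at 610 against 671 CPM (-0.59). At 1% of a cell's UMIs, Pyy was reached in 72 of 476 Isl1CKO cells (15.1%) and 109 of 171 control cells (63.7%), Ppy in 2.10% and 48.5%, Gcg in 0.630% and 38.0%, and Sst in 0.420% and 27.5%. Insulin, whose level the rule limits, was reached in 77 Isl1CKO cells (16.2%) and 5 control cells (2.92%), and nothing is read from these shares. Iapp, the amyloid peptide of beta cells, was reached in 40.8% and 38.6%, whose intervals overlap. None of insulin, Gcg, Sst, Ppy, Pyy and Ghrl reached 1% in 334 Isl1CKO cells (70.2%) and in 28 control cells (16.4%), while 5.46% and 64.9% of cells reached it for 2 or more. The part of free RNA in these shares was not tested; the mesenchymal-marker cells of the Isl1CKO library held 34.5 CPM of Pyy and no Sst UMI.

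**Figure D5:**
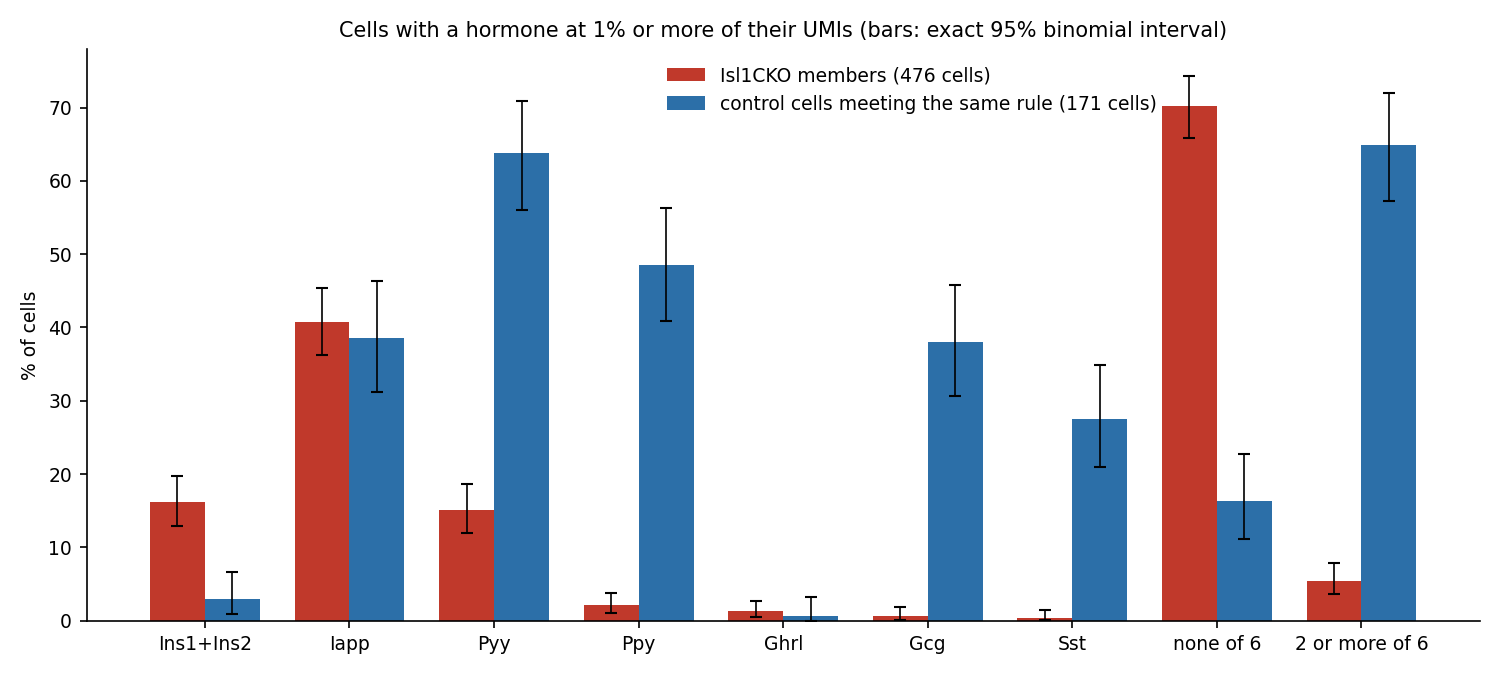
Share of cells (%) in which a hormone reached 1% of the cell's UMIs, in the chosen Isl1CKO cells (red) and in control cells that met the same limits (blue), with exact 95% binomial bars; the last 2 pairs count insulin, Gcg, Sst, Ppy, Pyy and Ghrl. The shares for Pyy, Ppy, Gcg and Sst are lower in the Isl1CKO cells and those for Iapp overlap; insulin was used by the rule and is shown as a description.

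Peptide and secretory genes were among the 12 highest. Cartpt (cocaine- and amphetamine-regulated transcript) stood at 353 CPM in Isl1CKO cells, against 7.21 CPM in control cells (log2 ratio 5.16, 4.6 to 5.79), with UMIs in 202 cells and 258 CPM without its highest cell. After thinning, Cartpt was counted in 21.6% of Isl1CKO and 3.51% of control cells. Within the Isl1CKO library it was not particular to the chosen cells. Its median per cell, at unequal depth, was 0 in the chosen cells, 67.8 CPM in Chgb-high, 36.5 CPM in Ttr-high and 0 in insulin-high cells. Tac1 stood at 89.3 against 8.66 CPM (2.92, 2.39 to 3.49). Cidea, a lipid droplet protein, stood at 99 against 7.5 CPM (3.27, 2.71 to 3.90), counted in 30.5% and 2.92% of thinned cells. C2cd4b, which encodes a C2-domain protein, stood at 262 against 28.9 CPM (2.73, 2.44 to 3.04), in 55.0% and 16.4% of thinned cells. In the mesenchymal-marker cells Cartpt and C2cd4b had no UMI and Cidea 2 UMIs. These 4 genes were thus counted in a larger share of the Isl1CKO cells at 4000 UMIs per cell. Hormones took up more of the UMIs of the control cells, as given above, so the UMIs left for other genes were not equal.

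Others of the 12 were lower in level. Rprml stood at 72.6 against 5.77 CPM and Wfdc10 at 59.4 against 4.91 CPM. The calcium channel subunit gene Cacna2d3 had 148 against 1 UMIs and Fst (follistatin, an activin antagonist) 168 against 2, for which the log2 ratios were 5.58 (3.08 to 10.89) and 4.76 (2.88 to 7.82). Adnp stood at 31.3 against 1.73 CPM, but shares exon sequence with Gm20716. Gast, Acta2 and Tagln rest on 1 cell each. Also among the 12 lowest, besides the hormones, Arg1 (arginase) stood at 15.3 against 219 CPM (though its log2 ratio was 1.07 between cells with hormones below 10% of UMIs), the growth-cone gene Gap43 at 3.05 against 61.5 CPM and the lipid-sensing receptor gene Gpr119 at 2.54 against 31.2 CPM. Dapl1 stood at 0.763 against 39.5 CPM, Igfbp5 at 0.890 against 15.6 CPM and Dcn at 0.127 against 14.7 CPM (-7.30, -12.64 to -4.76, on 1 UMI in Isl1CKO cells), with 92.2% of the control UMIs of Dcn in 1 cell, without which the control level was 1.16 CPM. Pappa2 stood at 8.90 against 111 CPM and shares exon sequence with 1600012P17Rik.

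Lists against the control cells showed the same split. With 3.76% of all genes higher and 1.8% lower, nothing is read from a count of 0 in a short list. Of 13 gut hormones and neuropeptides 5 were higher (Cartpt, Gast, Cck, Tac1, Sct) and 5 lower (Gcg, Sst, Ppy, Pyy, Edn3), with a median log2 ratio of -0.20. Sct stood at 65.0 against 12.7 CPM, and Cck (cholecystokinin) at 24.4 against 2.31 CPM, counted in 25 Isl1CKO cells. Most Cck UMIs of the Isl1CKO cells, 167, were in cluster 3, and 87 of these were in 1 cell. Of 12 alpha genes 1 was higher, Slc38a5 (1634 against 382 CPM), and 5 lower, among them Gcg, Peg10, Pou3f4 and Etv1 (median -0.96). The higher Slc38a5 sum came from clusters 3 and 5, at 6000 and 1579 CPM. Clusters 1, 2 and 4 stood at 193, 109 and 125 CPM, below the control cells. Of 11 delta, gamma and epsilon genes 0 were higher and 7 lower (Sst, Ppy, Arg1, Pyy, Frzb, Hhex, Etv1; median -1.58), and Hhex stood at 49.8 against 109 CPM. So Hhex, above the other Isl1CKO cells, was below the control cells chosen by the same limits.

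Of 18 progenitor regulators 0 were higher and 2 lower, Sox9 among them (median 0.31), of 7 Notch genes 0 and 0 (median 0.14), and of 13 commitment genes 2 were higher (Gadd45a, Cldn4; median 0.21). Neurog3 had a log2 ratio of 0.41 (0.16 to 0.66) and Sox4 of 0.85 (0.70 to 1.01). Of 14 beta genes 2 were higher (Nnat, Slc2a2) and 1 lower (Abcc8; median 0.07). Of 9 LIM complex genes 4 were higher and 0 lower (Lmo1, Lhx1, Lmx1b, Lmo4; median 0.56), with Lhx1 at 47.2 against 7.5 CPM. Of 16 granule genes 1 was higher, Chga (chromogranin A, 23072 against 6874 CPM), and 1 lower, Scg2 (secretogranin II, 294 against 2032 CPM), with a median of 0.09. Of 9 serotonin genes 1 was higher (Lmx1b) and 0 lower (median 0.07), of 15 cell-cycle genes 0 and 2 (Mcm5, Mcm2; median -0.26), of 11 neuronal genes 0 and 1 (Gap43; median -0.26) and of 8 immediate early genes 2 (Egr1, Nr4a1) and 1 (Jun; median 0.49).

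The control cells that met the limits held many hormone-rich cells, so the levels are also given for cells with islet hormones below 10% of UMIs, a limit chosen after seeing the data. These were 412 of the 476 Isl1CKO cells (86.6%) and 31 of the 171 control cells (18.1%). In them the intervals overlapped for Neurog3 and Cbfa2t3, and Sox4 was lower in the Isl1CKO cells. Neurog3 stood at 87.2 (80.2 to 94.7) against 95.8 CPM (69.3 to 129), Cbfa2t3 at 42.1 against 60.1 CPM and Sox4 at 295 (282 to 308) against 414 CPM (357 to 478). Cartpt (380 against 31.2 CPM), C2cd4b (277 against 64.6 CPM), Cidea (107 against 13.4 CPM), Tac1 (101 against 51.2 CPM) and Isl1 (707 against 227 CPM) were higher, and Gcg was lower (388 against 4676 CPM). With these cells 25 genes in place of 174 were lower, from only 31 control cells, and 445 were higher. The higher Neurog3 and Sox4 of the Isl1CKO cells in the full comparison were therefore not seen between hormone-poor cells, while the differences in Cartpt, Cidea and C2cd4b were.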

How the data were processed

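UMIs were counted per gene and barcode in 2 libraries, 1 per genotype. The authors deposited these counts as whole numbers without normalization, per the values. The tools listed in the submitters' processing notes are STAR 2.7.3a with STARsolo and Seurat 4.3.0.1, on GRCm38.p6, with no role given for Seurat and no annotation release. The deposited Isl1CKO matrix had been filtered (3020 barcodes with 4882 UMIs or more, 78068592 UMIs in all). The control matrix had not (6794880 barcodes, 89375215 UMIs), and barcodes were taken as cells from 6825.6 UMIs, which is 1/10 of the value at percentile 99 among the top 3000.

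Cells needed at least 500 genes and at most 15% mitochondrial UMIs. Counts were summed per group and scaled to CPM. Sums carry exact Poisson, shares exact binomial (Clopper-Pearson) and ratios exact conditional binomial intervals at 95%. With 1 library per genotype no test across samples is possible. A floor of 3 UMIs stands for a sum of 0. Ratios are relative to the median gene. Genes count at 2-fold with at least 50 UMIs in the group with the higher CPM, so in the smaller sum a gene must reach a higher CPM to be counted. The steps were tested on simulated data. Clustering used 1500 variable genes, 20 principal components and 15 neighbours. Scrublet calls were not removed.

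Named genes are the 12 highest and 12 lowest in each comparison by the interval bound nearest 0. Genes of the rule were left out, as were mitochondrial, ribosomal, acinar, erythroid, uncharacterised, Y-linked genes and Xist. The 6 markers, 13 gene lists and Isl1 were added. A few genes that these rules name are not reported here. The cells, markers and lists were chosen with earlier results of these data known. Promoters are from RefSeq (GRCm38.p6) and exon overlaps from GENCODE M21, in which 46488 of the 46983 gene identifiers were found. Of the alternative settings, 18 were fixed at the outset and 4 were chosen after seeing the data, and several are alternatives to the same choice. Software was scanpy 1.11.5, igraph 0.11.9, numpy 2.4.6, pandas 2.3.3, scipy 1.17.1, scikit-learn 1.9.0 and matplotlib 3.10.9 under Python 3.11.15.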

Additional observations from a re-analysis of the deposited data

How the results depend on the processing

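Of 1685 pairs of a gene ratio and an alternative setting, 1388 stayed close to the reported value, 284 moved and 13 changed sign. Some settings can hardly change a ratio, so this total is no measure of stability. With minima of 20 and 100 UMIs, 87 of 87 and 78 of 78 ratios stayed close. Thinned to 4000 UMIs with Fev at least 1 UMI, 24 of 56 did, and in hormone-poor cells 2 of 17. Among the 76 ratios of at least 2-fold, 1438 of the recomputed values were still 2-fold in the same direction and 13 were below 2-fold. Values that changed sign and passed 2-fold in the other direction are in neither count. Ratios that fell under the minimum count in a setting are also in neither.

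The share of cells that met the rule was 18.8% of Isl1CKO and 14.9% of control cells with Fev at least 2 UMIs, 10.6% and 2.08% with Fev at least 5 UMIs, and 14.1% and 5.73% with Ttr below 2%. It was 11.7% of control cells when each cell was thinned to 4000 UMIs and the Fev limit lowered to 1 UMI, and 13.3%, 18.7% and 14.3% of Isl1CKO cells with Chgb below 3%, Chgb below 5% and insulin below 5%.

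Counts of genes followed the minimum count. With at least 20 UMIs, 310 genes were higher than in other Isl1CKO cells, 555 higher and 204 lower than in Chgb-high cells, and 618 higher and 389 lower than in control cells. With at least 100 UMIs the counts were 104, 158 and 79, and 240 and 86. With no minimum they were 1877 higher and 1367 lower, 1512 and 912, and 1125 and 1787. Thinned to 4000 UMIs per cell with the Fev limit lowered to 1 UMI, they were 80 and 439, 76 and 56, and 173 and 84; both choices changed at once and the cause was not tested. Without centring on the median gene, 658 were higher and 440 lower than in other Isl1CKO cells, and 989 and 108 than in control cells; scaled to genes outside the abundant ones, 275 were higher than in other Isl1CKO cells. With the same minimum CPM in both directions, chosen after seeing the data, 268 were lower than in other Isl1CKO cells and 227 higher than in control cells. Against Chgb-high cells, 191 were higher with Fev at least 5 UMIs and 178 without cycling cells. Against control cells, 314 were lower with Fev at least 2 UMIs, 43 with Fev at least 5 UMIs and 25 in hormone-poor cells.

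The log2 ratio of Gast over other Isl1CKO cells changed sign with Fev at least 5 UMIs (-1.22), Ttr below 2% (-1.69) and without the highest cell (-0.76). Those of Acta2, Myl9 and Tagln were -6.29, -2.0 and -2.82 with insulin below 5%, and -4.40, -0.46 and -0.92 without the highest cell, since the settings leave out the cell that holds their UMIs. Without the highest cell Acta2 was -1.76 over Chgb-high and -3.26 over control cells, and Tagln -0.94 over control cells. Arg1 over control cells was 1.07 in hormone-poor cells; the cause was not tested. Leaving out each gene's highest cell and restricting to hormone-poor cells were chosen after seeing the data.

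Depth limits genes under about 50 UMIs per sum, and shares of cells with a UMI depend on the median UMIs of each group. No paired analysis was possible because each genotype is 1 library.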
